A study of Drosophila melanogaster with 12 samples.

Results

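RNA from male forelegs of a CS/CO13N hybrid of Drosophila melanogaster was set against the mean of its parental strains, CO13N and CS, gene by gene. The comparison used 9 of the 12 libraries of the series, 3 of the hybrid, 3 of CO13N and 3 of CS, each labelled as a biological replicate. The 3 libraries of RG11N entered only the estimate of the spread. By the design text of the series, CO13N males and hybrid males are selective, and males of CS and of RG11N promiscuous. Ages, the number of flies per library, the direction of the cross and the generation of the hybrid are not given in the labels, and neither is any transgene or treatment. Whether the replicates came from separate cultures is not stated, so p-values measure the spread between these libraries.

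When the parental alleles of a gene each keep their own activity in a hybrid, the hybrid is expected at the arithmetic mean of the parents, which is additivity on the linear scale. The log2 mid-parent is the geometric mean, which is always the lower of the 2 when the parents differ. Male flies carry a single X chromosome, which sons receive from the mother, and the dosage compensation complex raises its transcription. X-linked and autosomal genes were therefore counted apart.

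Total counts ran from 26374831 to 36034966 per library over all 12. The table listed 17807 genes, 4172 of them without a read, and 10996 were kept for testing, 1870 on the X and 9044 on autosomes. All 9 leg markers were present, among them Dll at 318 to 418 CPM (counts scaled to library size) in the 9 libraries, and Acp26Aa, a male accessory gland gene, had no count. The summed odorant receptor genes, a sign of antennal RNA, stood at 13.4 to 17.9 CPM in CO13N, 88.6 to 248 CPM in CS, 17.3 and 16.04 CPM in hybrid replicates 1 and 2 and 250.3 CPM in hybrid replicate 3. A summed list of 23 muscle genes stood at 22330 CPM in CO13N replicate 1 and 21250 CPM in CS replicate 1, against 2895 to 12620 CPM in the hybrid. Counts below are also given with such libraries left out or with these sums as a term of the fit. In bulk tissue, fewer cells of a type and less RNA per cell cannot be told apart.

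**Figure D1:**
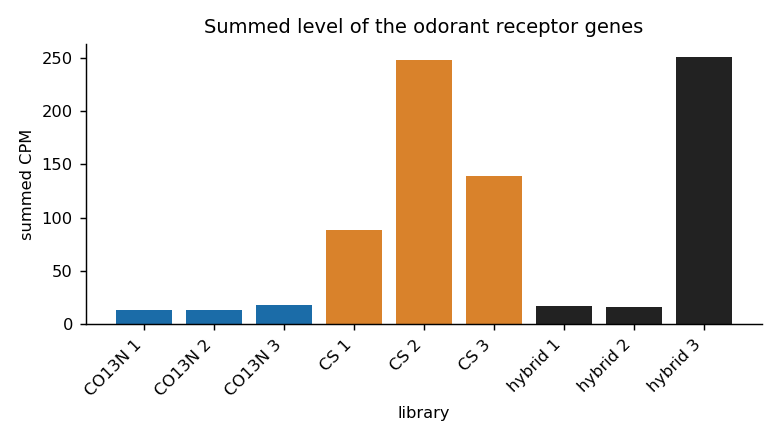
Summed CPM of the odorant receptor genes in each of the 9 libraries of CO13N, CS and the hybrid, 1 bar per library. The 3 CS libraries (88.6 to 248 CPM) and hybrid replicate 3 (250.3 CPM) stand above the other 5 libraries (13.4 to 17.9 CPM).

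The parents differed in 345 of 10996 genes (3.14%) by edgeR's quasi-likelihood test at a Benjamini-Hochberg adjusted p under 0.05, 197 of them higher (1.79%) and 148 lower (1.35%) in CO13N. The hybrid differed from CS in 107 genes (0.973%), 85 higher (0.773%) and 22 lower (0.2%). It differed from CO13N in 28 genes (0.255%), 22 higher (0.2%) and 6 lower (0.0546%). Leaving out CO13N replicate 2 lowered the parental calls to 206, and leaving out hybrid replicate 2 lowered the calls against CS to 65. The calls against CO13N fell to 12, 13 and 15 without CO13N replicates 1, 2 and 3 and to 10 and 7 without hybrid replicates 2 and 3.

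Against the log2 mid-parent, 12 of 10996 genes (0.109%) were called by the same test, all of them higher in the hybrid and 0 lower. At an unadjusted p under 0.05 there were 458 genes (4.17%), 317 higher and 141 lower. DESeq2 called 39 higher and 4 lower, and limma-voom with quality weights 2 higher and 0 lower. Against the linear mid-parent, 0 genes (0%) were called by the quasi-likelihood test. At an unadjusted p under 0.05 there were 353 genes (3.21%) on the linear scale, 170 higher and 183 lower, DESeq2 called 2 and limma-voom 5. No call on the log2 scale was therefore also a call on the linear scale.

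The 12 genes were CG3397, CG6912, CG15322, CG33282, CR43377, NT5E-2, CG43291, Alp4, asRNA:CR45600, Acsx4, CG12224 and Culd. CG15322 and CR43377 lie on the X and 10 lie on autosomes. CO13N was the higher parent for 9 and CS for 3, and each was also called between the parents, in libraries that the comparisons share. Without hybrid replicate 3 the count was 8, without CO13N replicate 2 it was 20, without CS replicate 1 it was 20 and without CS replicate 3 it was 21. With hybrid replicate 3 and CO13N replicate 1 both left out, a choice made after seeing the data, 3 genes were called.

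**Figure D2:**
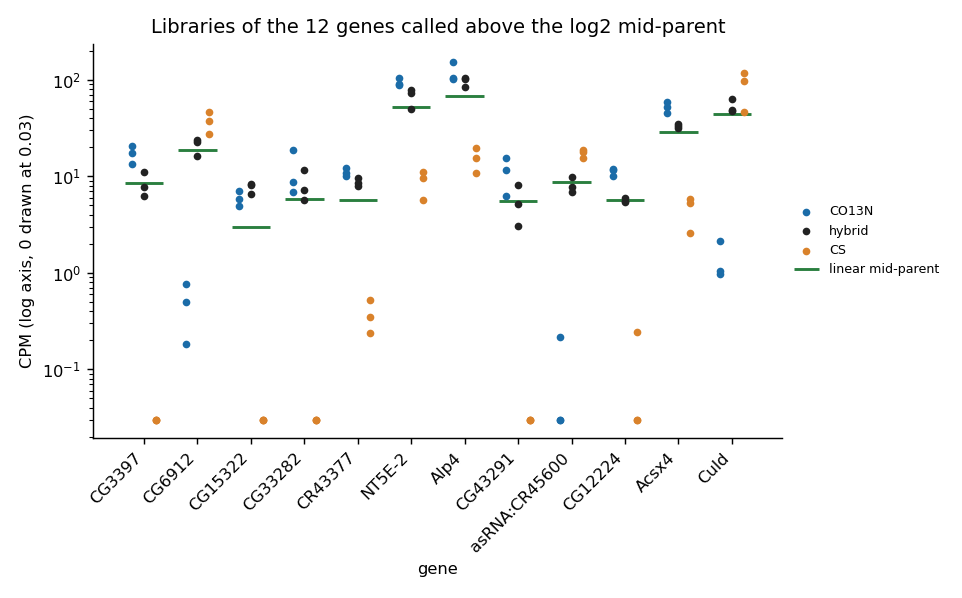
CPM of each library of CO13N (blue), the hybrid (black) and CS (orange) on a log axis for the 12 genes called above the log2 mid-parent, with a value of 0 drawn at 0.03 and a green bar at the linear mid-parent. The hybrid libraries lie near the green bar for most genes, and above it in all 3 libraries for CG15322, CR43377, Alp4, Acsx4 and Culd.

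CG3397 (FBgn0037975, chromosome 3R, 11983098 to 11984541 of BDGP6, the assembly also named dm6) gave the lowest adjusted p. It stood at 13.3, 20.8 and 17.3 CPM in CO13N, at 6.22, 10.98 and 7.71 CPM in the hybrid and at 0 in the 3 CS libraries. All hybrid libraries lay below all CO13N libraries and above CS. The adjusted p against the log2 mid-parent was 1.2e-04 by edgeR's quasi-likelihood test, while the hybrid mean, 8.30 ± 2.43 CPM (SD, n = 3), was 0.968 times the linear mid-parent of 8.58 CPM. With 0 counts in CS, a fitted log2 difference from the log2 mid-parent depends on the prior count and is not given. Its neighbour CG12224 (chromosome 3R, 11980704 to 11982062) stood at 10.1, 11.6 and 11.9 CPM in CO13N, at 5.60, 5.92 and 5.38 CPM in the hybrid and at 0, 0 and 0.244 CPM in CS. The hybrid mean of CG12224 was 0.996 times its linear mid-parent, and its call ended in 6 of 9 omissions of 1 library.

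CG6912 (FBgn0038290, chromosome 3R, 15135138 to 15137004) showed the reverse parental order. It stood at 0.181, 0.497 and 0.772 CPM in CO13N, at 16.4, 22.6 and 23.6 CPM in the hybrid and at 46.2, 27.7 and 37.2 CPM in CS. The groups did not overlap, and the hybrid lay 2.30 ± 0.27 (log2, SE) above the log2 mid-parent (edgeR quasi-likelihood, adjusted p = 4.6e-04) and 0.15 above the linear one (95% interval -0.46 to 0.76). The RNA asRNA:CR45600 lies on the same strand as CG6912, overlaps it only at their ends, and had the same order of groups, at 0, 0 and 0.216 CPM in CO13N, 9.75, 6.89 and 7.68 CPM in the hybrid and 17.9, 18.5 and 15.4 CPM in CS. It lies opposite to CG3984 and CG3987, and as the counting is not stated to use strand, reads from exons it shares with them cannot be told apart. Of the other genes named here, Alp4, NT5E-2, Hexo2, CG2004, Reck, Jheh2, Vmat, CG10352, CG6067, Os-C, dsx, msl-2 and roX1 also overlap an exon of another gene, which makes their values uncertain to that extent.

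Culd encodes a CUB and LDLa domain protein known from photoreceptor trafficking. It stood at 0.968, 2.14 and 1.05 CPM in CO13N, at 63.0, 47.7 and 49.0 CPM in the hybrid and at 96.3, 46.6 and 117.7 CPM in CS. The hybrid overlapped CS and lay far above CO13N. Its call against the log2 mid-parent (2.27 ± 0.35, adjusted p = 0.0428 by edgeR) ended in 6 of 9 omissions of 1 library. Against the linear mid-parent the difference was 0.27 (95% interval -0.59 to 1.13).

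Alp4, an alkaline phosphatase, was high in CO13N and the hybrid. It stood at 104.7, 153 and 102 CPM in CO13N, at 102, 104 and 84.7 CPM in the hybrid and at 15.4, 19.8 and 10.7 CPM in CS. The hybrid overlapped CO13N and lay 1.18 ± 0.18 above the log2 mid-parent (edgeR, adjusted p = 0.0038). On the linear scale the difference was 0.52 (95% interval 0.11 to 0.92), with an adjusted p of 1.0 over all genes. NT5E-2, a 5'-nucleotidase family gene, stood at 91.4, 89.2 and 104.5 CPM in CO13N, at 50.2, 78.4 and 72.6 CPM in the hybrid and at 11.1, 5.68 and 9.61 CPM in CS. Its groups did not overlap, and the hybrid was 1.21 ± 0.18 above the log2 and 0.37 above the linear mid-parent. Acsx4, of the acyl-CoA synthetase family, stood at 45.5, 59.4 and 52.3 CPM in CO13N, at 33.2, 31.6 and 34.8 CPM in the hybrid and at 5.81, 2.61 and 5.33 CPM in CS. It kept the call in 4 of 9 omissions of 1 library, and its linear difference was 0.22 (95% interval -0.25 to 0.69).

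CG33282 and CG43291 had 0 counts in CS and an intermediate hybrid. CG33282 (chromosome 2L, 3327903 to 3329792) stood at 8.74, 6.82 and 18.9 CPM in CO13N and at 7.28, 5.66 and 11.5 CPM in the hybrid. CG43291 (chromosome 3R, 14234984 to 14244677) stood at 11.7, 6.27 and 15.3 CPM in CO13N and at 3.06, 5.12 and 8.08 CPM in the hybrid. The hybrid overlapped CO13N in both genes, and the ratio of hybrid to CO13N means was 0.709 for CG33282 and 0.488 for CG43291.

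The X-linked pair lay higher. CG15322 (FBgn0031088, chromosome X, 20133579 to 20138878) stood at 7.02, 5.77 and 4.88 CPM in CO13N, at 8.23, 8.06 and 6.47 CPM in the hybrid and at 0 in CS. The hybrid overlapped CO13N and its mean was 1.29 times that of CO13N, with no call between the hybrid and CO13N (0.37 ± 0.54, adjusted p = 1.0 by edgeR). CR43377 (chromosome X, 19915332 to 19915685) stood at 10.2, 12.1 and 10.8 CPM in CO13N, at 8.53, 7.93 and 9.66 CPM in the hybrid and at 0.238, 0.350 and 0.522 CPM in CS. Its hybrid libraries lay just below CO13N, at a difference of -0.34 ± 0.34 that did not pass the test.

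Over the 207 genes called between the parents with at least 2-fold between them, the distance of the hybrid above the log2 mid-parent grew with the parental difference. Among autosomal genes the median distance was 0.08 for 101 genes with 2- to 4-fold, 0.41 for 40 genes with 4- to 16-fold and 1.69 for 43 genes with 16-fold or more. A hybrid exactly at the linear mid-parent would give medians of 0.15, 0.57 and 1.74. In the class of 16-fold or more, 43 of 43 autosomal genes lay above the log2 mid-parent and 19 of 43 above the linear one, and the medians of the 3 hybrid libraries were 1.54, 2.18 and 1.51. These genes were chosen on the parental libraries, which also set both mid-parents. Some of them, such as CG3397, CG33282 and CG43291, had 0 counts in CS, so their distance and parental difference depend on the prior count. On the X the classes held 11, 6 and 4 genes, too few to read a trend. Their medians were 0.05, 1.23 and 2.40 against 0.17, 0.63 and 1.85 at the linear mid-parent, and 5 of 11, 5 of 6 and 4 of 4 genes lay above the linear mid-parent. These medians pool both parental directions. In the X-linked class of 2- to 4-fold, genes higher in CO13N lay above the log2 mid-parent, from 0.05 (OtopLc) to 0.85 (t). Genes higher in CS lay below it, from -0.23 (CR43212) to -1.14 (CG32641), so the median of 0.05 is not a level they share.

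The position of the hybrid was written as 0 at the CS level and 1 at the CO13N level, from group means. On autosomes the median position over 184 genes was 0.610 on the log2 scale and 0.544 on the linear scale. The split by higher parent moved with the scale. For the 111 genes higher in CO13N the median was 0.724 on the log2 scale and 0.495 on the linear scale, and for the 73 genes higher in CS it was 0.431 and 0.611. On the linear scale, 176 of 184 autosomal genes lay between the parental means, 7 beyond CO13N and 1 beyond CS.

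On the X the median position was 0.928 over 21 genes on the log2 scale and 0.806 on the linear scale. All 21 lay nearer to CO13N than to CS on the log2 scale, and 20 of 21 on the linear scale. The 15 X-linked genes higher in CO13N had a linear median of 0.797, and the 6 higher in CS had 0.978. Each hybrid library gave the same order, with log2 medians of 0.964, 0.970 and 0.897 on the X against 0.619, 0.618 and 0.601 on autosomes. The 4 autosome arms had log2 medians of 0.543 on 2L, 0.611 on 2R, 0.612 on 3L and 0.649 on 3R. Genes are not replicates, so no test was made of this difference. The genes were chosen by the parental contrast, to which hybrid libraries gave only the shared spread, and leaving out chemosensory genes and genes high in RG11N replicate 3 gave 0.928 on the X and 0.609 on autosomes (log2).

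**Figure D3:**
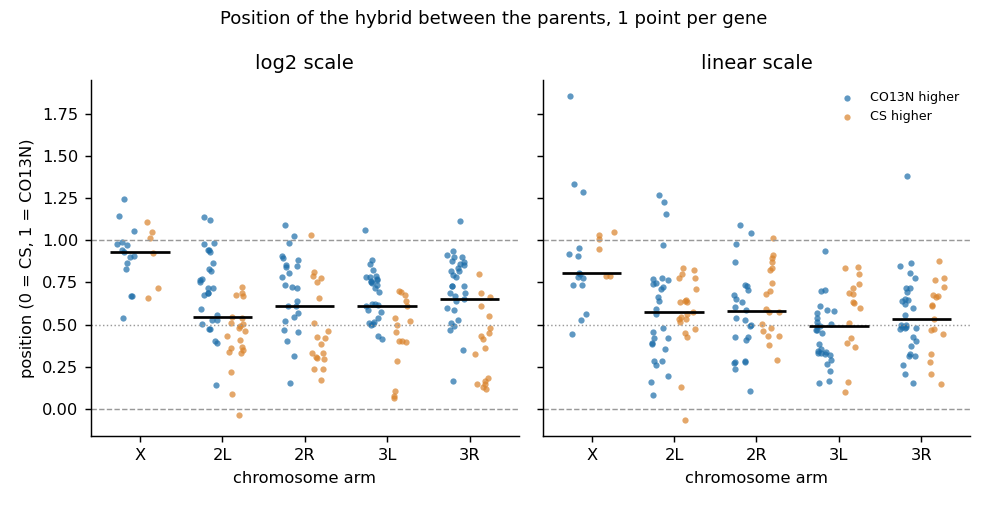
Hybrid level as a position from 0 (the CS level) to 1 (the CO13N level) for each gene called between the parents with at least 2-fold, by chromosome arm, on the log2 scale (left) and the linear scale (right), with blue points for genes higher in CO13N, orange points for genes higher in CS and a black bar at the median of the arm. The bar of the X lies at 0.928 (log2) and 0.806 (linear), and the autosome arms lie between 0.543 and 0.649 on the log2 scale.

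Classes were set by which parent the hybrid differed from. Of the 345 genes, 92 differed from CS only (like CO13N), 22 from CO13N only (like CS), 6 from both in between, 0 from both on the same side, and 225 from neither. The last group is unresolved, since a p that misses the threshold does not show equality. For the same reason the classes do not measure dominance. They rest on log2 differences, so a gene near 0 in 1 parent can be classed with the other while at the linear mid-parent. Linear positions among genes like CO13N included 0.484 for CG3397, 0.206 for TotX and 0.920 for Mec2. The count like CO13N was 58 without hybrid replicate 2. The count like CS was 7, 12 and 12 without CO13N replicates 1, 2 and 3, and 9 and 5 without hybrid replicates 2 and 3. In a fit that also held the summed odorant receptor level as a term, 98 parental calls gave 47 like CO13N and 8 like CS. That sum was lower in every CO13N library than in every CS library, so the term overlaps the parental difference. Calls lost for that reason and calls lost through antennal RNA cannot be told apart.

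On the X, 41 of 1870 genes (2.19%) were called between the parents. The count was 20 without CO13N replicate 2, 26 without CO13N replicate 3 and 6 with the odorant receptor term. Of the 41, 18 were like CO13N (11 without hybrid replicate 1 or 2, and 6 with the odorant receptor term), 0 like CS, 0 between and 23 unresolved. DESeq2 gave 42 like CO13N, 1 like CS and 0 between on the X, and limma-voom 14, 0 and 0. The hybrid differed from CS in 26 X-linked genes (1.39%) and 80 autosomal ones (0.885%). These were 14 on the X without hybrid replicate 1, and 15 on the X and 49 on autosomes without hybrid replicate 2. It differed from CO13N in 0 X-linked genes by edgeR's quasi-likelihood test (0%), with 52 at an unadjusted p under 0.05, 1 call by DESeq2 and 0 by limma-voom. On autosomes, 301 of 9044 genes (3.33%) were called between the parents, 186 without CO13N replicate 2 and 92 with the odorant receptor term. Of the 301, 73 were like CO13N, 22 like CS, 6 between and 200 unresolved. The 169 autosomal genes higher in CO13N gave 63 like CO13N and 2 like CS, and the 132 higher in CS gave 10 and 20. Among genes called between the parents, the quasi-likelihood test of the hybrid at an unadjusted p under 0.05 was also counted. On the X the hybrid differed from CS in 41 of 41 genes and from CO13N in 3 of 41. On autosomes it differed from CS in 232 of 301 and from CO13N in 152 of 301.

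**Figure D4:**
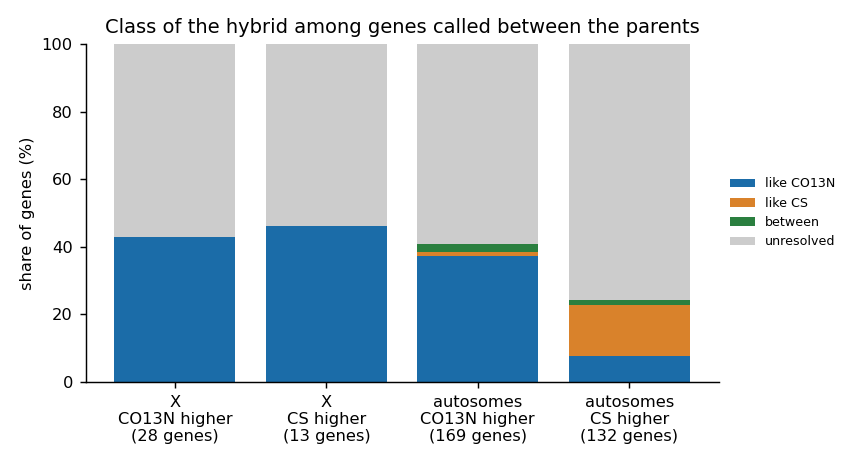
Share of genes in each class of the hybrid (in percent) among genes called between the parents, by chromosome and by the higher parent. Classes rest on tests of log2 differences, so like CO13N or like CS does not exclude a level at the linear mid-parent. Like CO13N (blue) makes up 42.9% and 46.2% on the X, 37.3% of the autosomal genes higher in CO13N and 7.58% of those higher in CS, and like CS (orange) appears on autosomes only, at 1.18% and 15.2%.

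Among the X-linked genes like CO13N, Mec2, a stomatin-like gene, stood at 25.3, 28.2 and 41.0 CPM in CO13N, at 25.6, 32.6 and 29.7 CPM in the hybrid and at 1.77, 5.17 and 4.004 CPM in CS. The hybrid lay within the CO13N range and 3.01 ± 0.42 (log2, SE) above CS (edgeR, adjusted p = 0.0065). Hexo2, a hexosaminidase gene, stood at 19.5, 25.03 and 29.9 CPM in CO13N, at 19.7, 20.7 and 21.9 CPM in the hybrid and at 4.11, 4.75 and 5.29 CPM in CS. The hybrid was again within the CO13N range, though Hexo2 overlaps its neighbour CG2004 by position. The gene t (tan), whose enzyme returns dopamine and histamine from their beta-alanyl forms, stood at 170, 263 and 162 CPM in CO13N, at 213, 204 and 160.5 CPM in the hybrid and at 61.3, 68.4 and 46.6 CPM in CS. It was chosen after its values were seen, and the hybrid lay -0.05 ± 0.24 from CO13N and 1.71 ± 0.24 above CS (adjusted p = 0.0032 by edgeR).

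X-linked genes with CS as the higher parent showed the same side. CG32640 (chromosome X, 13178005 to 13178523) stood at 30.0, 31.6 and 29.4 CPM in CO13N, at 26.8, 34.5 and 39.4 CPM in the hybrid and at 88.8, 112 and 82.8 CPM in CS. Its near neighbour CG32641 (chromosome X, 13184478 to 13184996) stood at 11.9, 7.58 and 12.4 CPM in CO13N, at 7.67, 7.80 and 12.3 CPM in the hybrid and at 38.3, 46.1 and 31.7 CPM in CS. In both genes the hybrid overlapped CO13N and lay below CS. They had the lowest adjusted p against the linear mid-parent, 0.106 for each by the constrained quasi-likelihood test, at -0.90 ± 0.15 and -1.41 ± 0.23 (log2), and were called by DESeq2, by limma-voom and without the filter on low counts. The pair has equal annotated length, and how reads shared by close copies were counted is not given, so their values are uncertain.

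The genes between the parents were Arc1, CR10102, CG5704, Reck, sNPF-R and CG9928, all autosomal. Arc1, which encodes a capsid-like protein of neurons, stood at 2055, 2203 and 1896 CPM in CO13N, at 753, 1016 and 724 CPM in the hybrid and at 349, 362 and 384 CPM in CS. The groups did not overlap, and the hybrid was 1.19 ± 0.17 above CS and -1.30 ± 0.17 from CO13N (edgeR, adjusted p = 8.5e-04 and 9.8e-04). It lay at the log2 mid-parent (-0.06 ± 0.15) and below the linear one (-0.54, 95% interval -0.87 to -0.21, adjusted p = 1.0). CR10102, annotated as a pseudogene, lies between Arc1 and Arc2 on 2R and stood at 445, 559 and 443 CPM in CO13N. In the hybrid it stood at 185, 254 and 158 CPM, and in CS at 96.3, 77.4 and 101.6 CPM. Its hybrid mean also stood near the log2 mid-parent (-0.08 ± 0.19), but whether its reads are independent of those of Arc1 is not known.

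sNPF-R, the receptor of short neuropeptide F, stood at 6.50, 2.35 and 2.72 CPM in CO13N, at 9.98, 12.8 and 17 CPM in the hybrid and at 60.4, 54.5 and 67.9 CPM in CS. The groups did not overlap. The hybrid lay -0.21 ± 0.28 from the log2 mid-parent and -1.29 ± 0.31 from the linear one (constrained quasi-likelihood test, adjusted p = 0.861), and limma-voom called it below the linear mid-parent. Like Arc1, it stood nearer to the geometric than to the arithmetic mean. The class favours such genes, since it requires a call against each parent on the log2 scale. Reck, a metalloprotease inhibitor in mammals, stood at 85.0, 99.1 and 91.2 CPM in CO13N, at 46.3, 46.2 and 48.7 CPM in the hybrid and at 29.8, 22.3 and 33.9 CPM in CS. The number of genes in between was 11 without the filter on low counts. It was 1 without CO13N replicate 2, hybrid replicate 1 or hybrid replicate 2, 2 without CS replicate 2 or hybrid replicate 3, and 3 without CO13N replicate 3.

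Among autosomal genes like CS, GstE11, a glutathione S-transferase, stood at 19.4, 13.1 and 12.4 CPM in CO13N, at 51.4, 56.6 and 73.8 CPM in the hybrid and at 112, 101.9 and 107.8 CPM in CS. All 3 groups stood apart, and the class rests on a miss of the threshold against CS (-0.82 ± 0.20, adjusted p = 0.054 by edgeR), with a hybrid mean of 0.991 times the linear mid-parent. TpnC4, a muscle troponin C, stood at 0.272, 0.183 and 0.309 CPM in CO13N, at 3.29, 6.86 and 3.91 CPM in the hybrid and at 7.17, 9.18 and 15.8 CPM in CS. The muscle sum did not follow that order, with its highest values in CO13N replicate 1 and CS replicate 1. Jheh2, a juvenile hormone epoxide hydrolase, stood at 656, 763 and 645 CPM in CO13N, at 1074, 1111 and 1249 CPM in the hybrid and at 986.5, 1086 and 894 CPM in CS. Its hybrid libraries overlapped CS and lay above CO13N (0.73 ± 0.14, adjusted p = 0.0285 by edgeR).

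No gene passed the test for lying outside both parents (0 of 10996, 0%). At an unadjusted p under 0.05 against each parent, 20 genes lay above and 25 below, and DESeq2 and limma-voom also gave 0. All 3 hybrid libraries stood above all 6 parental libraries in 94 genes (0.855%) and below them in 74 (0.673%). With so few libraries this order can arise without a difference, so these are not counts of genes outside both parents. On the X these were 25 (1.34%) and 14 (0.749%), and on autosomes 69 (0.763%) and 60 (0.663%). CG2004, the neighbour of Hexo2, was one of the former, at 45.2, 50.9 and 37.8 CPM in CO13N, 55.2, 56.6 and 65.7 CPM in the hybrid and 27.8, 36.03 and 30.4 CPM in CS. It was called above CS (0.91 ± 0.16, adjusted p = 0.0050 by edgeR) and not against CO13N (0.41 ± 0.16, adjusted p = 0.937). CG17778, also on the X, lay below all parental libraries, at 13.2 to 14.9 CPM against 16.7 to 19.4 CPM in CO13N and 21.6 to 38.0 CPM in CS.

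Genes counted in 1 parent and nearly absent from the other gave a reading that did not use the hybrid in the choice. They had at most 3 pooled counts in 1 parent and at least 100 in the other. The expressing parent, however, set both the choice and the divisor of the ratio. Genes just over 100 counts may have been chosen for a high parental value, which lowers their ratio. For 37 autosomal genes on in CO13N, the median ratio of hybrid to CO13N CPM was 0.471, with 0.282, 0.461 and 0.446 in the 3 hybrid libraries, and 20 of 37 ratios lay from 0.25 to 0.75. A pair of neighbours on 3L, mas and lncRNA:CR44529, were lower, with ratios of 0.156 and 0.268. Leaving out chemosensory genes and genes high in RG11N replicate 3, chosen after seeing the data, left 26 genes with a median of 0.470.

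The 5 X-linked genes on in CO13N had a median ratio of 0.806 and ranged from 0 to 1.82. CG15322 and lncRNA:CR45625 stood at 1.29 and 1.82, CG10352 at 0.806 and CG15347 at 0.737. The transcription factor gene dmrt11E had 100 pooled counts in CO13N and none in the hybrid or CS. The median moved to 1.07 without hybrid replicate 2 and to 0.643 without hybrid replicate 1.

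For 34 autosomal genes on in CS, the median was 0.432, but it was 0 in hybrid replicates 1 and 2 and 1.09 in replicate 3. Os-C, an antennal gene, stood at 123, 482 and 245 CPM in CS and at 0, 0 and 520.6 CPM in the hybrid, and 16 of the 34 genes belong to the chemosensory lists. GstE4 stood at 5.68, 7.66 and 5.47 CPM in CS and at 0.165, 0 and 79.1 CPM in the hybrid, with 90.0 CPM in RG11N replicate 3. Without hybrid replicate 3 the median was 0, and no reading of additivity was taken from these genes. The 3 X-linked genes on in CS had ratios of 0.272 for CG6067, 0.820 for Ir8a and 0 for lncRNA:CR42767, and the counts of CG6067 and Ir8a in the hybrid came from replicate 3 alone.

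Of 9 dosage compensation genes tested, 0 were called in any of the comparisons by edgeR, beside 3.14% of all genes tested between the parents and 0.109% against the log2 mid-parent, so a count of 0 is near the background. Of the 9, 0 passed an unadjusted p under 0.05 against either mid-parent, and their median difference from the log2 mid-parent was 0.05 against 0.01 over all genes tested. The X-linked RNA roX1 stood at 1183, 951 and 1521 CPM in CO13N, at 1244, 1497 and 1340 CPM in the hybrid and at 1358, 1261 and 1626 CPM in CS, so the groups overlapped. The products of msl-2 and mle belong to the complex. Their hybrid means were 34.9 ± 1.00 and 61.7 ± 7.73 CPM against linear mid-parents of 33.0 and 59.7 CPM. The groups also overlapped for mle. For msl-2 the CS libraries, at 30.8, 24.0 and 30.1 CPM, lay below all hybrid and CO13N libraries. The parental difference of msl-2 was not called (edgeR, adjusted p = 0.246). X-linked genes took 16.3% ± 0.338 (SD, n = 3) of the counts in the hybrid, 15.8% ± 0.649 in CO13N and 16.2% ± 1.41 in CS. The exact two-sided permutation p was 0.4 against CO13N and 0.9 against CS, where 3 against 3 allows no p under 0.1.

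The cytochrome P450 genes, enzymes of detoxification and hormone metabolism, held 13 parental calls among 71 tested, 6 higher and 7 lower in CO13N, beside 345 of 10996 (3.14%) over all genes tested. In the hybrid 5 were like CO13N, 1 like CS and 7 unresolved, and 0 were called against either mid-parent by edgeR (8 higher and 1 lower at an unadjusted p under 0.05 on the log2 scale, beside 4.17% of all genes tested). Cyp6a20, known for its link to male aggression, stood at 498, 494 and 481 CPM in CO13N, at 360, 303 and 337 CPM in the hybrid and at 181, 180 and 182 CPM in CS. Its groups stood apart, with a hybrid mean of 333 CPM against a linear mid-parent of 336 CPM. It counts as like CO13N because the difference from CO13N (-0.56 ± 0.13) missed the threshold at an adjusted p of 0.0843 by edgeR. Cyp6a8 was like CS, at 22.4, 20.7 and 13.4 CPM in CO13N, 54.3, 52.0 and 99.9 CPM in the hybrid and 91.6, 118 and 58.1 CPM in CS. Of 35 glutathione S-transferase genes tested, 9 were called between the parents, beside 3.14% of all genes tested. In the hybrid 2 were like CO13N, 2 like CS and 5 unresolved, with a median of 0.22 above the log2 mid-parent and 0.13 above the linear one, against 0.01 and -0.01 over all genes tested.

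Among 24 neuropeptide genes tested, 5 were called between the parents, beside 3.14% of all genes tested, 2 of them like CO13N and 3 unresolved. Burs, a subunit of the hormone bursicon, had pooled counts of 186 for CO13N, 142 for hybrid males and 0 for CS, at 0.461, 2.28 and 1.69 CPM in the hybrid against 2.30, 1.07 and 2.13 CPM in CO13N. Vmat, the vesicular monoamine transporter, stood at 331, 543 and 367 CPM in CO13N, at 436, 455 and 410 CPM in the hybrid and at 199, 212 and 145 CPM in CS. Its hybrid libraries lay within the CO13N range and 1.23 ± 0.20 above CS (adjusted p = 0.0060 by edgeR), at 0.53 above the linear mid-parent (95% interval 0.15 to 0.92, adjusted p = 1.0). TotX, a Turandot stress gene, stood at 236, 159 and 166 CPM in CO13N, at 41.2, 34.7 and 54.6 CPM in the hybrid and at 10.98, 4.90 and 2.82 CPM in CS. It was like CO13N by class, yet its groups did not overlap and its hybrid mean of 43.5 CPM was under the linear mid-parent of 96.7 CPM (-1.15, 95% interval -2.13 to -0.18), a difference limma-voom called and edgeR did not (adjusted p = 1.0).

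Lists of courtship and of chemosensation were counted in the same way. Among 38 ionotropic receptor genes tested, 3 were called between the parents, all higher in CO13N, beside 3.14% of all genes tested. In the hybrid 1 of these was like CO13N, 1 like CS and 1 unresolved. Of 7 tested genes of sex determination and courtship, 0 were called between the parents or against a mid-parent by edgeR, and 0 passed an unadjusted p under 0.05 against either mid-parent. Over all genes tested 3.14% were called between the parents, 0.109% against the log2 and 0% against the linear mid-parent, so 0 of 7 is near the background. Their median lay at -0.06 on both scales. The sex determination genes dsx and fru had hybrid means of 185.5 ± 4.57 and 81.9 ± 10.1 CPM against linear mid-parents of 204 and 90.2 CPM. Of 18 pickpocket channel genes tested, 1, ppk, was called higher in CO13N than in CS, beside 3.14% of all genes tested called between the parents. Of 20 CheA and CheB genes tested, 2 were called, CheB38a and CheB38b, both lower in CO13N (edgeR, adjusted p = 0.0329 for ppk, 0.0289 and 0.0389). All 3 were unresolved in the hybrid, and 0 genes of either list were called against a mid-parent by edgeR, with 1 pickpocket gene and 0 CheA or CheB genes at an unadjusted p under 0.05 on the log2 scale. The pickpocket genes ppk23 and ppk25, known for detecting pheromones in foreleg bristles, had 986 ± 182 and 128 ± 5.59 CPM in the hybrid against linear mid-parents of 1112 and 136 CPM. Of the 33 gustatory receptor genes tested, 0 were called in any of these comparisons by edgeR, and 1 higher and 1 lower passed an unadjusted p under 0.05 against the log2 mid-parent, beside 3.14% called between the parents and 4.17% unadjusted over all genes tested. Obp57e, an odorant-binding protein gene of leg taste bristles, stood at 47.3, 53.6 and 50.2 CPM in CO13N, at 53.1, 75.6 and 84.0 CPM in the hybrid and at 107.1, 138 and 150.0 CPM in CS. Hybrid replicate 1 lay within the CO13N range, all 3 lay below CS, and the difference from CS passed the test (-0.89 ± 0.19, adjusted p = 0.0313 by edgeR) while that from the linear mid-parent did not (-0.36 ± 0.17).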

How the data were processed

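Gene-level counts were deposited by the authors as a single table. Per the labels' protocols, polyA RNA from disrupted forelegs was prepared with Nextera XT. Subread and dm6 are named in the submitters' processing notes, and strandedness and annotation release are not given in the sources used here. Symbols and positions came from Ensembl BDGP6.54.115 (17710 of 17807 identifiers matched). Counts were filtered with filterByExpr (minimum count 10), scaled with TMM and fitted in edgeR 4.0.16 over all 12 libraries (8 residual degrees of freedom). The linear mid-parent was tested by refitting each gene with the hybrid mean held at the arithmetic mean of the parents and comparing deviances with the moderated quasi-dispersion. Adjustment was Benjamini-Hochberg over all 10996 genes. DESeq2 1.42.0 and limma 3.58.1 were alternatives. The code was tested on simulated data. CPM used TMM library sizes, and log2 CPM a prior count of 2. Named genes were the log2 calls, the largest of each class by parental difference, the genes on in 1 parent with most counts, and set genes such as roX1, dsx, fru, TotX and Vmat. Genes named beyond that rule (t, Reck, CG9928, CG32640, CG32641, GstE4, GstE11, Jheh2, Cyp6a8, Burs, mas, dmrt11E, CG2004, CG17778) were chosen after their values were seen. Members and lists were chosen with earlier results of these data known. A gene at 0 in a library of this depth allows up to 0.0784 to 0.117 CPM (3 counts), which covers counting error only.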

Additional observations from a re-analysis of the deposited data

How the results depend on the processing

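No alternative gave a gene outside both parents. RLE and upper quartile factors, a filter of 5 CPM in 3 libraries and the muscle sum as a covariate left every count within 1.5 times. Without the filter on low counts there were 20 calls on the log2 scale, 2 on the linear scale and 11 genes between. DESeq2 gave 645 parental calls, 230 against CS, 88 against CO13N, 43 and 2 against the log2 and linear mid-parents, classes of 180 like CO13N, 61 like CS, 19 between and 385 unresolved, and log2 positions of 0.863 (X) and 0.593 (autosomes). Limma-voom gave 53 against CO13N, 2 and 5 against the mid-parents, 39 like CS and 12 between. The odorant receptor covariate, which itself separates the parents, gave 98 parental calls, 70 against CS, 13 against CO13N and 47, 8, 3 and 40 in the classes. Without hybrid 3 and CO13N 1 there were 9 calls against CO13N, 3 against the log2 mid-parent, 5 like CS and an autosomal log2 position of 0.631. The 9 libraries alone gave 0.588 for that position. The X log2 position was 0.863 with no minimum fold, and 4-fold or more gave 0.863 (X, linear) and 0.690 (autosomes, log2). Genes on in CS on the X gave 0.820 at 300 counts or more, and those on in CO13N gave 1.05 without chemosensory genes and genes high in RG11N 3. The share of X-linked counts in the hybrid minus CS was 0.152 percentage points and turned to -0.305 (exact permutation p = 0.8) without mitochondrial genes. The cause of these moves was not tested.

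Leaving out 1 library at a time gave 206 to 342 parental calls (lowest without CO13N 2), 65 to 104 against CS (lowest without hybrid 2), 7 to 30 against CO13N (lowest without hybrid 3) and 8 to 21 against the log2 mid-parent. Classes ran from 58 to 87 like CO13N, 5 to 24 like CS, 1 to 6 between and 110 to 261 unresolved. Positions ran from 0.889 to 0.969 (X, log2), 0.806 to 0.946 (X, linear), 0.574 to 0.682 (autosomes, log2) and 0.508 to 0.602 (autosomes, linear), and the ratio of X-linked genes on in CO13N from 0.643 to 1.07.

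Correlations of deviations from group means ran from -0.0894 to 0.209 between same-numbered libraries of different groups. Between differently numbered libraries they ran from -0.128 to 0.0964. The highest, 0.209, was between replicate 3 of the hybrid and of RG11N. Whether replicate numbers mark shared handling cannot be told from these values. A replicate block gave 10 calls against the log2 mid-parent, all among the 12, and 0 against the linear one. With 3 libraries a group, most parental calls stay unresolved in the hybrid.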
